A study of Mus musculus with 6 samples.

Results

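The genes described here are the PAR bZIP transcription factors Dbp, Tef and Hlf, their antagonist Nfil3, and 6 further genes that circadian studies use as clock outputs: Usp2, Wee1, Noct, Tspan4, Tfrc and Avp. They were chosen by name, as every probe set that the platform annotation assigns to exactly 1 gene with 1 of these 10 symbols. The choice gave 21 probe sets for 10 of the 18164 genes named by such probe sets. A probe set was tested if its mean over the 6 arrays lay above the 40th percentile of all probe sets, which 17 of the 21 did. The other 4 all belong to Tfrc, and 3 of those are control probe sets that the array maker placed along the transferrin receptor transcript.

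RNA came from whole adrenal glands of male Per2Brdm1/Cry1-/- mice, 3 months old, on a mixed background written as C57BL6x129Sv. Every animal carried both the Per2Brdm1 mutation and the loss of Cry1, and the labels call such mice deficient in the circadian clock, so the set holds no group with a working clock and no wild-type gland was analysed here. The mice had been entrained to a light-dark cycle and then released into constant darkness, and glands were dissected 46 h or 54 h after lights off. There were 3 arrays per time point, here called replicates 1, B and C, and the labels do not say whether an array stands for 1 animal or a pool, so the p-values reflect only how far these samples differ from each other, in part perhaps for technical reasons. Because both groups carry the same alleles, the 1 comparison possible is between the time points, and it addresses whether clock output transcripts differ 8 h apart when Per2 and Cry1 are disrupted.

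The array values are the intensities the authors deposited, on a linear scale. Defining transcripts of the gland were bright in both groups: Star, which moves cholesterol into mitochondria, averaged 17478 and 16876 units at 46 h and 54 h, and Th, the first enzyme of catecholamine synthesis, 9097 and 8785. None of the 7 cortex and 7 medulla markers passed the test (0 of 14 in limma). At a limma unadjusted p of 0.05, 2 medulla genes were lower, beside 5.74% of all probe sets. All 14 had a lower mean at 54 h, by small amounts. The median log2 changes were -0.05 for cortex and -0.08 for medulla, beside -0.02 over all probe sets tested. Array medians lay between 204 and 217 units, and pairs of arrays correlated at 0.975 to 0.989 over the probe sets tested. The ratio of the 3 prime to the 5 prime control probe set, a sign of RNA integrity, was 1.46 to 1.57 for Actb, 0.915 to 1.05 for Gapdh and 2.05 to 3.96 for Tfrc, whose controls are dim, with the time points overlapping for each gene. The number of arrays limits the precision.

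PAR bZIP factors, named for a domain rich in proline and acidic residues beside a basic leucine zipper, bind short D-box elements as dimers and activate transcription. NFIL3, also called E4BP4, binds the same elements and represses. In tissues with a working clock, CLOCK and BMAL1 drive Dbp through E-boxes, and Nfil3 is repressed by REV-ERB factors, so that activator and repressor peak at opposite phases and pass the rhythm on to genes of metabolism and detoxification. Nfil3 and several outputs are also known to respond to signals from outside the clock, such as cAMP, cytokines or serum. In the adrenal gland the clock is known for gating the output of glucocorticoids in response to ACTH.

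To show which regulatory elements lie next to the start sites of these genes, promoter windows of 300 bases (250 before and 50 after an annotated start) were taken from RefSeq, assembly GRCm38.p6, and searched on both strands for the E-box CACGTG, the E-prime box CACGTT, the D-box TTANGTAA and the CRE TGACGTCA. There were 12 windows for 9 of the 10 genes. Wee1 had no window and was not searched, and the windows of Tfrc overlap each other in part. The E-box was found in 4 of the 12 windows, both of Tef, that of Avp and 1 of the 2 of Tspan4, and in 7.15% of all 32851 windows. The E-prime box was found in 1 window, that of Avp, against 4.68% of all windows, and the CRE in 1, that of Hlf, against 1.79%. The D-box was found in 0 of the 12 windows and in 2.32% of all. No matches overlapped. Those letters were not in the windows of Dbp, Nfil3, Noct, Tfrc and Usp2, which describes these 300 bases only. The 5 windows below are those of Tef, with an E-box at each of 2 start sites, of Avp, with both kinds of E-box, of Hlf, with the CRE, and of Nfil3, the gene that varied most between arrays. Capitals mark the matches, and each window reads from 5 prime to 3 prime on the strand of its gene.
Tef, first start site, chr15:81802423-81802722, plus strand: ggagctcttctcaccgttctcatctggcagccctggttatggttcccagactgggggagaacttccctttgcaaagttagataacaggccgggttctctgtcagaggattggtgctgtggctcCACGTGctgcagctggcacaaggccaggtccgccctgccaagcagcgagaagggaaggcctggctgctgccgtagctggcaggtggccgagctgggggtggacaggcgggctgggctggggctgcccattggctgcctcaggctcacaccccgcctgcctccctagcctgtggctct
Tef, second start site, chr15:81811164-81811463, plus strand: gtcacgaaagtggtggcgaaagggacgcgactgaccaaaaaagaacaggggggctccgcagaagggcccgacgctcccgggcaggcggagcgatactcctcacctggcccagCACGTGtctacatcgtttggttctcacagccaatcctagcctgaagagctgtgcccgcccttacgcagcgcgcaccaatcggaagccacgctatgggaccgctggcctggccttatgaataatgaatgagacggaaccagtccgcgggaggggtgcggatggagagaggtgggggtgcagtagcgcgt
Avp, chr2:130582539-130582838, minus strand: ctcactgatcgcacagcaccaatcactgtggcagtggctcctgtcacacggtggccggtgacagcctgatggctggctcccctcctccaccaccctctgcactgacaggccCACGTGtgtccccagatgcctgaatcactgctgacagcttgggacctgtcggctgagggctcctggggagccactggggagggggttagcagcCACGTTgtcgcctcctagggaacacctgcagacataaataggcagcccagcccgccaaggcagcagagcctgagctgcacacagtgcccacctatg
Hlf, chr11:90390868-90391167, minus strand: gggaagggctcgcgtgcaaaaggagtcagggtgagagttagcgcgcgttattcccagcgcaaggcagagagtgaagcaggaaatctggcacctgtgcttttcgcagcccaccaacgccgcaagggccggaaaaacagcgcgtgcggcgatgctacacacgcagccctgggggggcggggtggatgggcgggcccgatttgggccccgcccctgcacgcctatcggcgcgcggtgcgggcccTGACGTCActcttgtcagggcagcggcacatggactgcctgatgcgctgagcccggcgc
Nfil3, chr13:52980990-52981289, minus strand: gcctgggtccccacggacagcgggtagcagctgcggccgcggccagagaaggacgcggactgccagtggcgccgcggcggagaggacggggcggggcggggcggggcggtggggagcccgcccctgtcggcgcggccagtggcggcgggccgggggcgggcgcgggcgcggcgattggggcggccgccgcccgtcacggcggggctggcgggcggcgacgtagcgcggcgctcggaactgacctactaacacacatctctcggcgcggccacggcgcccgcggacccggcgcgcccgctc
Counted from the start site, the E-boxes begin at -127 and -138 in the windows of Tef and at -139 in that of Avp, the E-prime box of Avp begins at -46, and the CRE of Hlf begins at -9. A match is a run of letters and does not show that a factor was bound in these glands.

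None of the 10 genes passed the test between 46 h and 54 h. Over the 17 probe sets tested, 0 had a limma adjusted p under 0.05, where 0.115% of all 26969 probe sets tested did (31). At an unadjusted p of 0.05 there was 1, a Tfrc probe set that was lower at 54 h, or 1 of 17 against 10.1% of all probe sets. For 2 of 17 (11.8%), Tfrc and Wee1, the groups were fully separate, both with lower values at 54 h, against 15.5% of all probe sets in either direction and 9.05% with lower values. Taking the brightest probe set for each gene, 6 genes had a higher and 4 a lower mean at 54 h, and the median log2 change was 0.04, beside -0.02 over all probe sets tested. The 95% confidence intervals of 9 genes left no room for a 2-fold change in either direction, and 8 of these also left none for a 1.5-fold change. The exceptions were Nfil3, whose interval included both, and Tfrc, whose interval included a 1.5-fold decrease. These intervals bound the intensity of the brightest probe set and not the amount of transcript. There are no detection calls, and whether the signals of Tspan4 and Avp exceed background is unknown. In whole glands, fewer cells of a type and less RNA per cell cannot be told apart.

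**Figure D1:**
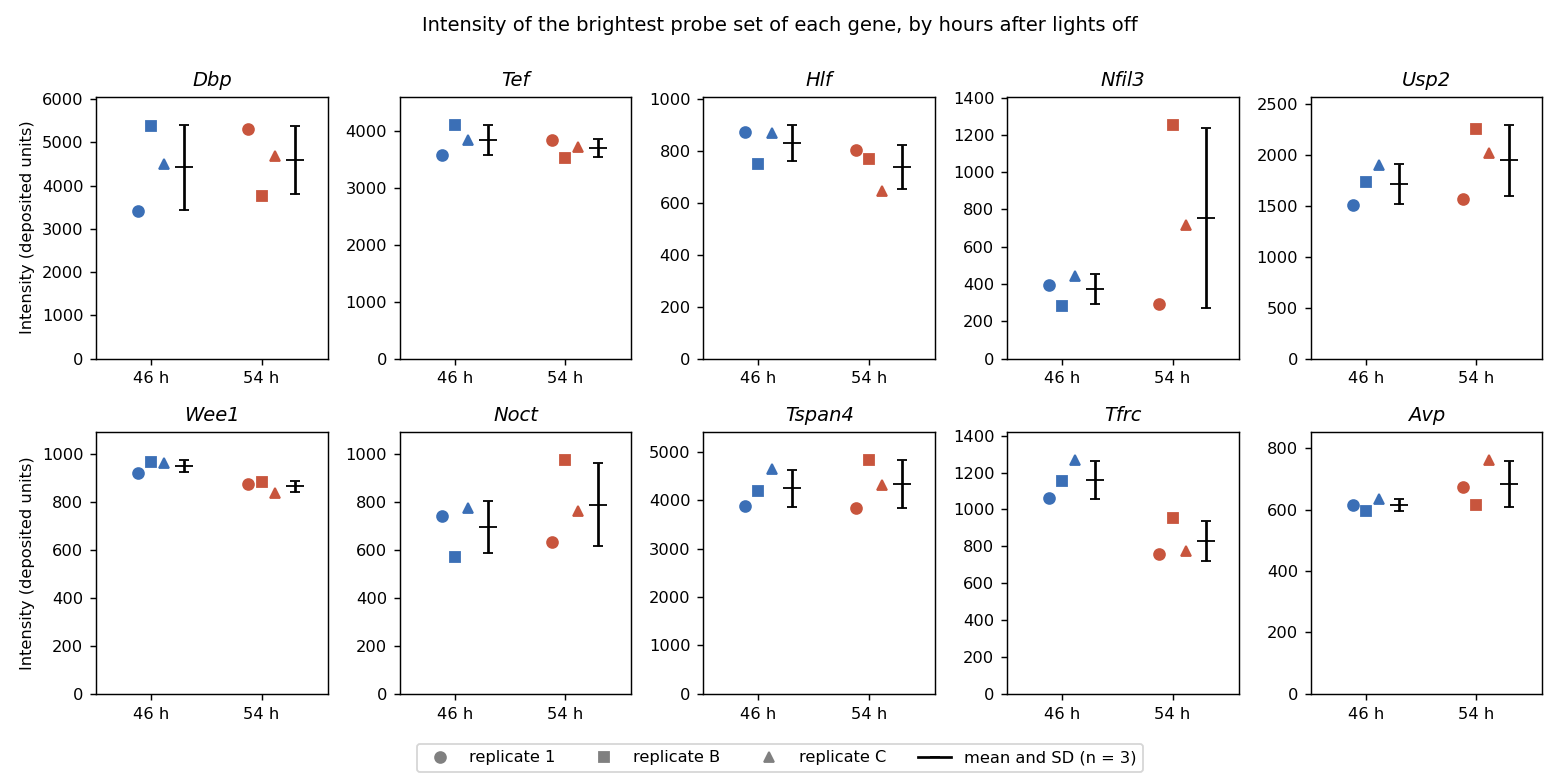
Deposited intensity (vertical axes, linear, starting at 0) of the brightest probe set of each of the 10 genes at 46 h and 54 h after lights off; points are arrays, with the shape giving the replicate, and black bars are the mean and SD of 3 arrays. Only Tfrc and Wee1 have no overlap between the time points, and Nfil3 reaches 1255 units on 54 h replicate B while 54 h replicate 1 stays at 291.

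Dbp is the PAR bZIP factor with the widest daily swing in normal tissues. Its brighter probe set read 3411, 5373 and 4500 units at 46 h and 5317, 3759 and 4688 units at 54 h (values are always in the order of replicates 1, B and C). Each time point thus held 1 low and 1 high array, and the groups overlapped almost completely. The means were 4428 ± 983 and 4588 ± 784 units (SD, n = 3 each). This corresponds to a log2 change of 0.06 ± 0.16 SE with a 95% confidence interval of -0.31 to 0.43 (limma adjusted p = 0.933). The other Dbp probe set read 1421, 2131 and 1987 units at 46 h and 2138, 1412 and 1740 at 54 h, a log2 change of -0.06 ± 0.17 SE. The signs of the changes differ, but the array pattern was shared: 46 h replicate 1 and 54 h replicate B were the 2 lowest arrays in both probe sets, and 46 h replicate B and 54 h replicate 1 the 2 highest. The SD of Dbp over the 6 arrays, 0.26 and 0.27 on the log2 scale for the 2 probe sets, exceeded that of 88.4% and 89.6% of the probe sets tested. Dbp therefore varied more between arrays of 1 time point than between the time points.

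**Figure D2:**
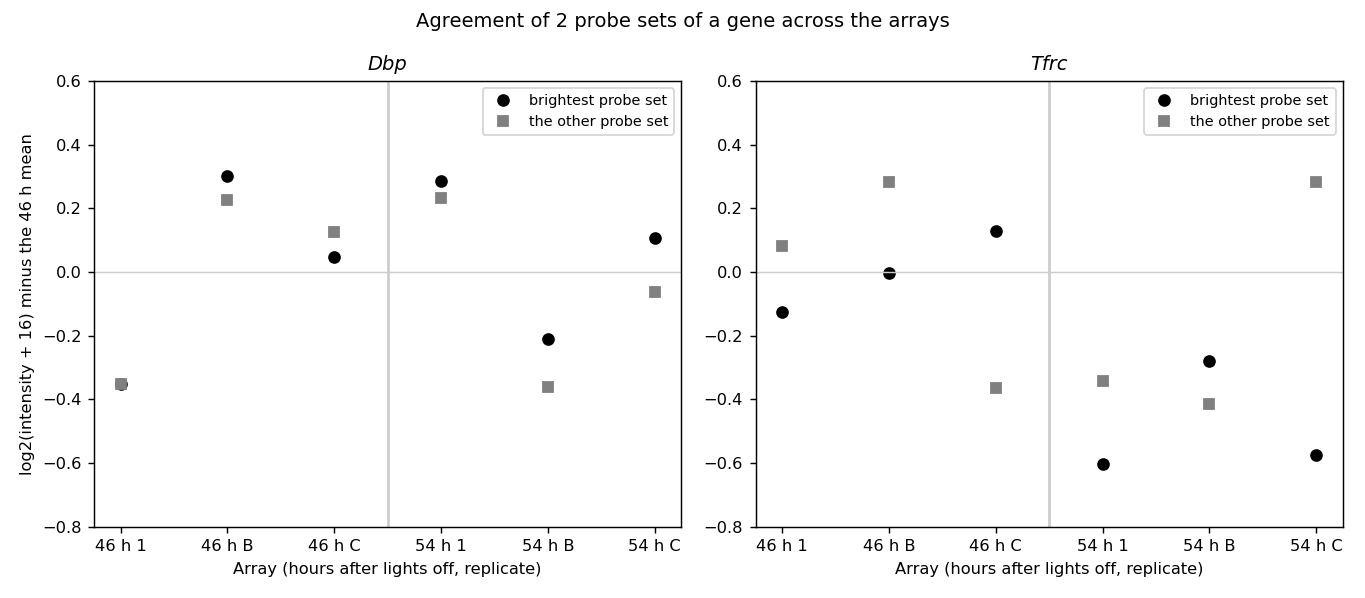
Deviation from the 46 h mean, on log2(intensity + 16), of the 2 tested probe sets of Dbp (left) and of Tfrc (right) on each of the 6 arrays; circles are the brightest probe set and squares the other. The Dbp probe sets share their 2 lowest arrays, 46 h replicate 1 and 54 h replicate B, whereas the Tfrc probe sets part on 54 h replicate C, at -0.57 and 0.28.

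Tef, the PAR bZIP factor named for thyrotroph cells of the pituitary, was among the steadiest of the 10 genes. Its brightest probe set read 3574, 4114 and 3843 units at 46 h and 3844, 3535 and 3721 at 54 h, so the 54 h values lay inside the 46 h range except for replicate B, which was just below it. This gave a log2 change of -0.05 ± 0.07 SE, with a 95% confidence interval of -0.20 to 0.10 (limma adjusted p = 0.839). The dimmer Tef probe sets had log2 changes of 0.01 ± 0.16 SE and 0.21 ± 0.14 SE. The last of these averaged 162 ± 7.35 and 191 ± 28.5 units (SD, n = 3 each), little above the filter, which corresponded to 139 units, and its 54 h mean rested most on replicate 1, at 223 units. The 3 probe sets of Tef thus give small values of either sign, none past the test.

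Hlf, first known from a fusion gene in leukaemia, acts with Dbp and Tef in liver and kidney. Its brighter probe set read 871, 749 and 870 units at 46 h and 804, 767 and 643 at 54 h, with 54 h replicate C lowest of all arrays and the groups overlapping. The log2 change was -0.17 ± 0.12 SE, with a 95% confidence interval of -0.43 to 0.09 (limma adjusted p = 0.663), and it came to -0.075 without 54 h replicate C and to -0.24 without 46 h replicate B. The other Hlf probe set stayed between 670 and 756 units on all 6 arrays and had a log2 change of 0.02 ± 0.09 SE. The change of the brighter probe set was 0.19 below that of the other on the log2 scale (exact permutation over arrays, two-sided p = 0.1, the smallest that 3 against 3 arrays allow; 0.6 after Benjamini-Hochberg adjustment over 6 such pairs).

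Nfil3, the repressor that competes with the PAR bZIP factors for D-boxes, varied most of the 10 genes. It read 392, 283 and 444 units at 46 h and 291, 1255 and 716 units at 54 h. At 54 h, replicates B and C stood above every 46 h array, and replicate 1 stood inside the 46 h range, near its lower end. Its log2 change was 0.78 ± 0.42 SE with a 95% confidence interval of -0.16 to 1.72, from means of 373 ± 82.3 and 754 ± 483 units (SD, n = 3 each; limma adjusted p = 0.574). Its SD over the 6 arrays, 0.81 on the log2 scale, exceeded that of 99.8% of the probe sets tested, and the SD within 54 h, 1.03, was wider than that within 46 h, 0.32. Leaving out 54 h replicate 1 gave a log2 change of 1.33, and leaving out 54 h replicate B gave 0.31 (limma adjusted p = 0.083 and 0.738, within a range of 0.063 to 0.958 over the alternatives), so single arrays set its size.

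The genes whose array pattern lay nearest to that of Nfil3 were Gem, Hspa1a and Hmgcs1, by the root mean square difference of log2 values, each gene centred on its own mean over the 6 arrays, among 23210 probe sets of other single genes. This is a ranking over 6 arrays with no test. Gem, a small GTPase induced by mitogens, differed by 0.10 and read 203, 144 and 235 units at 46 h and 151, 725 and 462 at 54 h. Hspa1a, the inducible HSP70 gene, differed by 0.16 and read 1258, 939 and 1296 units at 46 h and 1028, 4180 and 2983 at 54 h. Hmgcs1, a cholesterol synthesis enzyme, differed by 0.16 and read 1477, 1000 and 1368 units at 46 h and 896, 3221 and 2320 at 54 h. All 3 share with Nfil3 a highest value on 54 h replicate B, the next on 54 h replicate C, and a 54 h replicate 1 inside or below the 46 h range. They were picked for likeness on these same arrays, so the shared order follows from the choice.

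Marker lists on the same arrays gave the following values. Of 17 immediate early genes tested, 15 had a higher mean at 54 h and 0 passed limma over all probe sets (8 had an unadjusted p under 0.05, all with higher means, beside 4.33% of all probe sets), with a median log2 change of 0.42. Relative to 46 h, the mean of the list was raised by 0.16, 0.84 and 0.62 on the 3 arrays of 54 h. The summed level of the 20 genes on the list was 36504 to 41037 units at 46 h and 41166 to 58502 at 54 h. Of 10 liver genes tested, 9 had higher means, 8 of them at an unadjusted p of 0.05, and 2, Serpina1b and Cyp3a11, passed. The mean of that list was raised by 0.64, 1.14 and 0.85 on those arrays. The sum over the 11 liver genes ran from 3951 to 6177 units at 46 h and from 8622 to 12732 at 54 h. Of 6 adipose genes tested, 4 had higher means, 3 of them at an unadjusted p of 0.05, and 0 passed limma. The mean of the adipose list was raised by 0.49, 0.13 and 0.26, most on 54 h replicate 1, and its sum was 26004 to 32257 units at 46 h and 27543 to 34857 at 54 h. No gene of the 3 lists was listed at 0 on any array. The part of these lists in the level of Nfil3 was not tested.

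Usp2, a deubiquitinase whose transcript is rhythmic in many tissues, was measured by 2 probe sets whose mean changes were alike. Array by array, the 2 lay on the same side of their own means on 4 of the 6 arrays. The brighter read 1509, 1731 and 1899 units at 46 h and 1568, 2258 and 2017 at 54 h, with 54 h replicates B and C above all 46 h arrays and replicate 1 among the low ones. The log2 change was 0.17 ± 0.14 SE, with a 95% confidence interval of -0.13 to 0.48 (limma adjusted p = 0.714). The other probe set read 1176, 1255 and 1367 units at 46 h and 1360, 1724 and 1332 at 54 h, a log2 change of 0.21 ± 0.11 SE. Both probe sets were highest on 54 h replicate B, and without that array their changes fell to 0.060 and 0.090. Without 54 h replicate 1 they were 0.32 and 0.26.

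Noct, also called nocturnin or Ccrn4l, belongs by sequence to a family of deadenylases and removes a phosphate from NADP(H). It read 744, 573 and 777 units at 46 h and 633, 976 and 763 at 54 h. Only 54 h replicate B lay outside the 46 h range, and the means were 698 ± 110 and 791 ± 173 units (SD, n = 3 each). Noct had a log2 change of 0.17 ± 0.17 SE, with a 95% confidence interval of -0.21 to 0.55 (limma adjusted p = 0.787). Without 54 h replicate B the change was 0.0063 and without 46 h replicate B 0.034, whereas without 54 h replicate 1 it was 0.31, so single arrays set its size too. A further probe set that the annotation gives to Noct and other genes together was left out.

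Wee1, the kinase that holds CDK1 inactive before mitosis and a direct E-box target of the clock in liver, had the smallest spread within a time point. Its brighter probe set read 922, 965 and 964 units at 46 h and 876, 883 and 840 at 54 h. Every 54 h array lay below every 46 h array, with means of 951 ± 24.6 and 866 ± 23.2 units (SD, n = 3 each). The log2 change was -0.13 ± 0.08 SE, with a 95% confidence interval of -0.32 to 0.06, and it did not pass (limma unadjusted p = 0.15, adjusted p = 0.637). The SE that limma used borrows from probe sets of like intensity and is wider than the spread of these 6 values alone, whose SD within each time point was 0.04 on the log2 scale. The other Wee1 probe set overlapped, at 279, 232 and 270 units at 46 h and 205, 276 and 221 at 54 h, with a log2 change of -0.15 ± 0.14 SE.

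Tspan4, a membrane protein of the tetraspanin family, read 3887, 4193 and 4653 units at 46 h and 3839, 4830 and 4309 at 54 h, with the groups overlapping. Its log2 change was 0.03 ± 0.09 SE, with a 95% confidence interval of -0.18 to 0.23 (limma adjusted p = 0.954). Avp, the precursor of vasopressin and an E-box driven output of the clock in the suprachiasmatic nucleus, read 615, 594 and 634 units at 46 h and 673, 615 and 761 at 54 h. Replicates 1 and C of 54 h stood above all 46 h arrays and replicate B among them. The log2 change of Avp was 0.15 ± 0.11 SE, with a 95% confidence interval of -0.09 to 0.38 (limma adjusted p = 0.691), and it was 0.066 without 54 h replicate C and 0.22 without 54 h replicate B. The table holds no detection calls, so whether either signal exceeds the background of its probe set is unknown.

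Tfrc, which brings iron into cells by taking up transferrin, came nearest to the threshold. Its brightest probe set read 1060, 1155 and 1268 units at 46 h and 757, 951 and 773 units at 54 h. All 54 h arrays lay below all 46 h arrays, with means of 1161 ± 104 and 827 ± 108 units (SD, n = 3 each). This was a log2 change of -0.49 ± 0.12 SE, with a 95% confidence interval of -0.74 to -0.23 (limma unadjusted p = 0.00209, adjusted p = 0.199), so it did not pass over all probe sets. Leaving out 1 array at a time gave log2 changes between -0.59 and -0.42.

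The other probe sets of Tfrc did not share that separation. The next brightest read 389, 448 and 280 units at 46 h and 286, 271 and 449 at 54 h, with a log2 change of -0.16 ± 0.22 SE. On 46 h replicate C it was low where the brightest probe set was highest, and on 54 h replicate C it was the highest of its 6 values where the brightest was low. The 2 changes differed by -0.33 on the log2 scale (exact permutation over arrays, two-sided p = 0.5, and 0.9 after Benjamini-Hochberg adjustment over 6 pairs). The smallest p possible is 0.1, so this test cannot decide whether the 2 probe sets agree. The 4 probe sets under the filter had log2 changes of -0.14, 0.09, 0.01 and -0.09. Of these, the 3 prime control read 82.1 to 93.5 units over all arrays, the middle control at most 16.9 and the 5 prime control 22.9 to 45.6, so the controls hold little signal from which to read a change.

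**Figure D3:**
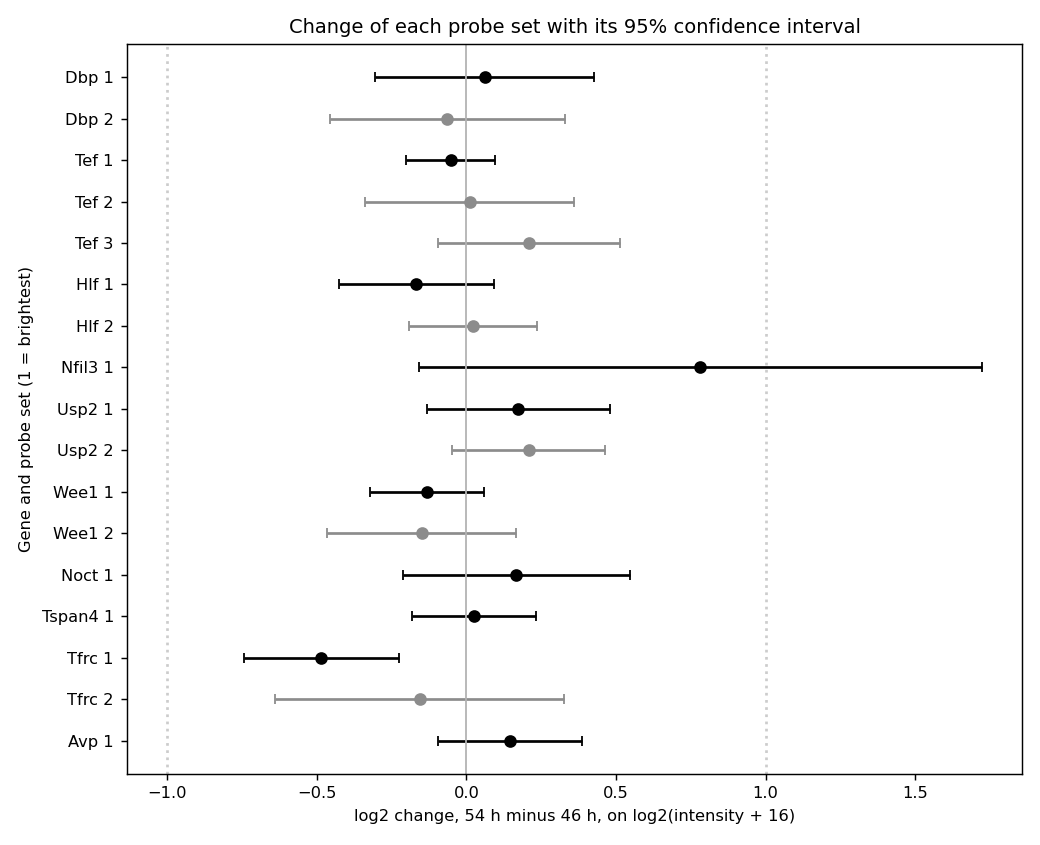
log2 change between 54 h and 46 h (horizontal axis, on log2(intensity + 16)) of the 17 tested probe sets with their 95% confidence intervals from limma; black marks the brightest probe set of a gene, grey the others, and dotted lines a 2-fold change. The interval of the brightest Tfrc probe set, -0.74 to -0.23, is the one that excludes 0, and that of Nfil3, -0.16 to 1.72, is the widest.

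Genes that handle iron beside Tfrc showed no change past the test. Of 13 genes of iron uptake and storage tested, 0 passed limma and 0 had an unadjusted p under 0.05, and the median log2 change was -0.01. The smallest p-values belonged to Hmox1, which frees iron from haem, with a log2 change of -0.25 ± 0.12 SE, Steap3, which reduces iron in endosomes, with -0.48 ± 0.30 SE, Aco1, which as IRP1 binds and stabilises the Tfrc transcript when iron is scarce, with 0.11 ± 0.08 SE, and Ncoa4, which delivers ferritin for breakdown, with 0.12 ± 0.09 SE. Red cell precursors are rich in transferrin receptor. Of 4 red cell genes tested, 3 had a higher mean at 54 h and 1, Hbb-b2, passed, with a log2 change of 1.04 ± 0.12 SE, while Hba-a1 had -0.30 ± 0.30 SE. The sum over the 5 genes of the red cell list was 1519 to 1995 units at 46 h and 2072 to 2472 at 54 h. Most of the immune cell markers, but not all, had the same sign as Tfrc. Of 10 tested, 7 had lower and 3 higher means, and the median log2 change was -0.14. Of the lower ones, 4 had an unadjusted p under 0.05 (beside 5.74% of all probe sets), and 0 passed limma. The smallest p-values among them belonged to Lyz2, a lysozyme of macrophages and neutrophils, with -0.37 ± 0.06 SE, and C1qc, a complement chain made by macrophages, with -0.38 ± 0.10 SE. Their sum was 29589 to 30824 units at 46 h and 27078 to 27683 at 54 h, so the groups did not overlap. Of 6 endothelial genes, 4 had lower means and 1 of these an unadjusted p under 0.05, beside the same 5.74% of all probe sets. No gene of these lists was listed at 0, and their part in the level of Tfrc was not tested. The genes nearest to Tfrc in array pattern were Sugp2, 2610005L07Rik and Cpne7, with root mean square differences of 0.01, 0.05 and 0.05. Sugp2, a protein with splicing factor motifs, read 608, 666 and 735 units at 46 h and 446, 548 and 447 at 54 h.

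The core clock genes that set the outputs, measured with them, did not pass either. Of 13 tested, 0 passed limma and 0 had an unadjusted p under 0.05, with 8 higher and 5 lower means and a median log2 change of 0.06. Npas2 and Cry1 lay under the filter and were not tested, with log2 changes of -0.34 and -0.41. Cry1 and Per2, the latter among the genes tested, are the genes altered in these mice. The smallest p-values belonged to Rora, an activator of the loop, Per1, Nr1d1, which encodes REV-ERB alpha, a repressor of Nfil3, and Cry2. Their log2 changes were 0.12 ± 0.07 SE, 0.25 ± 0.19 SE, 0.18 ± 0.14 SE and -0.17 ± 0.14 SE.

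Known targets of the PAR bZIP factors went both ways. Of 11 tested out of 15 with a probe set, 0 passed limma; those with an unadjusted p under 0.05 were 2 with higher and 1 with lower means, beside 4.33% and 5.74% of all probe sets, and the median log2 change was -0.13. Abcb1b, a drug efflux transporter, read 11726, 11432 and 11402 units at 46 h and 9889, 7993 and 8856 at 54 h. Its groups did not overlap, and the log2 change was -0.37 ± 0.07 SE (limma adjusted p = 0.0924). It passed with the replicate letter as a block (adjusted p = 0.0409) and without 54 h replicate 1 or 54 h replicate B, with log2 changes of -0.45 and -0.30. Cyp2c50, a liver P450, read 125, 96.5 and 133 units at 46 h and 245, 271 and 223 at 54 h, a change of 0.97 ± 0.15 SE (log2; limma adjusted p = 0.0542). That gene is known for expression in liver, and the liver genes given above were higher on the same arrays; the part of liver transcripts in its level was not tested. Pdxk, which activates vitamin B6, had 0.13 ± 0.05 SE, and Ppara, the fatty acid sensor, -0.19 ± 0.09 SE.

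Among 8 tested of the other bZIP factors that share dimer partners or elements with this family, 0 passed limma. With a limma unadjusted p under 0.05 there were 2, both higher, beside 4.33% of all probe sets. Crem, which encodes the cAMP-induced repressor ICER among its products, read 1220, 647 and 1190 units at 46 h and 1694, 2330 and 2029 at 54 h. All its 54 h arrays, replicate 1 included, lay above all 46 h arrays, and the change was 1.02 ± 0.22 SE (log2, limma adjusted p = 0.156). Crem was also counted among the immediate early genes above. Cebpb, a factor of acute responses, had 0.30 ± 0.11 SE, Ddit3, a stress-induced factor, -0.29 ± 0.13 SE, and Atf5 0.16 ± 0.09 SE. The median over the 8 genes was 0.03.

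Partner and family lists of the remaining outputs held 0 genes past limma. Beside the lower genes counted below at a limma unadjusted p of 0.05, the share over all probe sets was 5.74%. Around Wee1, 9 genes of the G2/M transition were tested, with a median log2 change of -0.11, and 1 was lower at an unadjusted p of 0.05: Pkmyt1, the sister kinase that also inhibits CDK1, with -0.28 ± 0.11 SE. Its 54 h arrays, at 509 to 526 units, lay below its 46 h arrays, at 553 to 708. So did those of the brighter Wee1 probe set, but not those of the other. Such separation with lower values held for 9.05% of all probe sets. The cyclin Ccnb2 had -0.35 ± 0.18 SE and Cdk1 itself -0.23 ± 0.12 SE. Of 10 genes of mRNA deadenylation listed beside Noct, 0 had an unadjusted p under 0.05. Those with the smallest p were Cnot8, Cnot7 and Pan2, with -0.18 ± 0.08 SE, -0.14 ± 0.07 SE and -0.31 ± 0.15 SE. Of 10 ubiquitin proteases listed beside Usp2, 0 had an unadjusted p under 0.05, and Usp8 had -0.28 ± 0.13 SE. Of 8 tetraspanins 1 was lower at that level, Tspan3 with -0.14 ± 0.05 SE. In the vasopressin and oxytocin system 4 genes were tested and 1 was lower at that level, the oxytocin receptor gene Oxtr, with 387 ± 81.8 and 245 ± 20.5 units (SD, n = 3 each) and a change of -0.61 ± 0.16 SE (log2; limma adjusted p = 0.253). Of 5 transcripts of hypothalamus and pituitary tested, 0 passed limma and 4 had lower means, 2 of them, Gh and Slc17a6, at an unadjusted p of 0.05. The median was -0.33, and the sum was 1645 to 2228 units at 46 h and 1285 to 1390 at 54 h. Their part in the level of Avp was not tested.

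**Figure D4:**
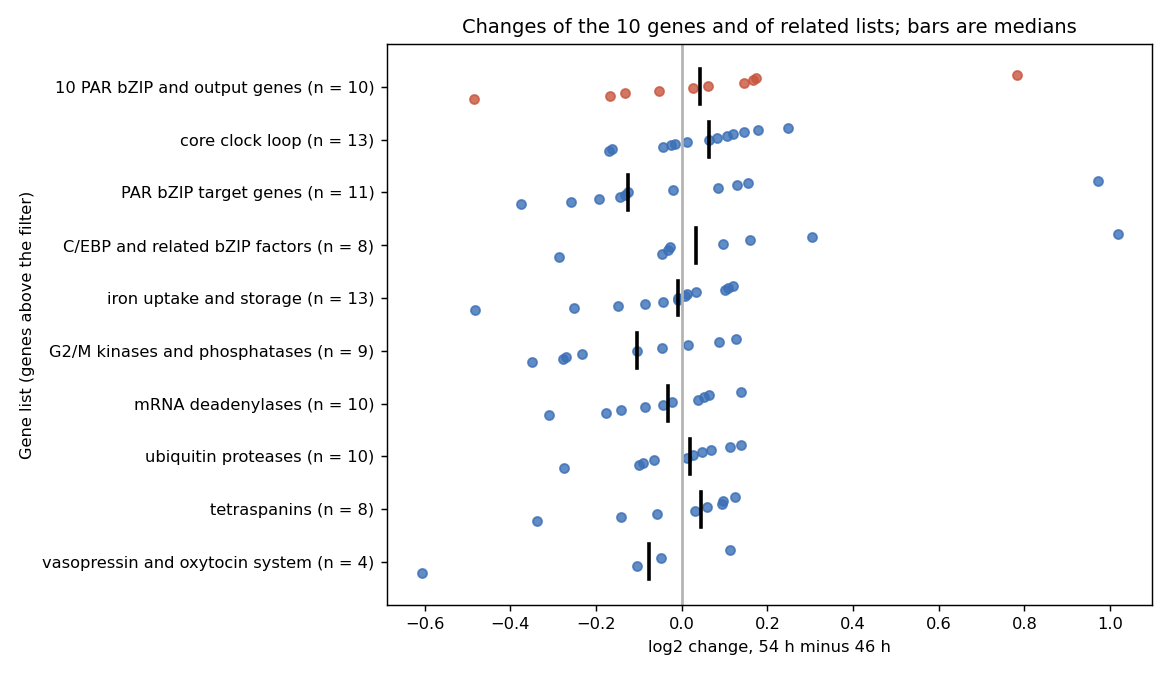
log2 change between 54 h and 46 h of the 10 genes (top) and of the tested genes of 9 related lists, with the brightest probe set standing for each gene; points are genes and black bars are list medians. The medians lie between -0.13 and 0.06, and the outermost points of the 10 genes are Tfrc at -0.49 and Nfil3 at 0.78.

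Read array by array, the outputs did not move as a block. Of the 10 genes, 4 had their highest value on 54 h replicate B (Nfil3, Usp2, Noct and Tspan4), 3 on 46 h replicate B (Dbp, Tef and Wee1), and 0 on 54 h replicate 1. On 54 h replicate B the repressor Nfil3 stood 1.73 above its 46 h mean on the log2 scale while Dbp stood at -0.21, Tef at -0.12 and Hlf at -0.11. On 54 h replicate 1, by contrast, Nfil3 stood at -0.32 and Dbp at 0.29. On 54 h replicate C Nfil3 stood at 0.93, the brightest Dbp probe set at 0.11 and Hlf at -0.36. Nfil3 and that Dbp probe set thus had opposite signs on 54 h replicates 1 and B and the same sign on replicate C. The other Dbp probe set stood at -0.06 on 54 h replicate C, opposite to Nfil3. Among the 46 h arrays, replicate B had Nfil3 at -0.36 and Dbp at 0.30, replicate 1 had Nfil3 at 0.09 and Dbp at -0.35, and replicate C had both above the mean, at 0.26 and 0.05. These are single arrays described after their values were seen.

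**Figure D5:**
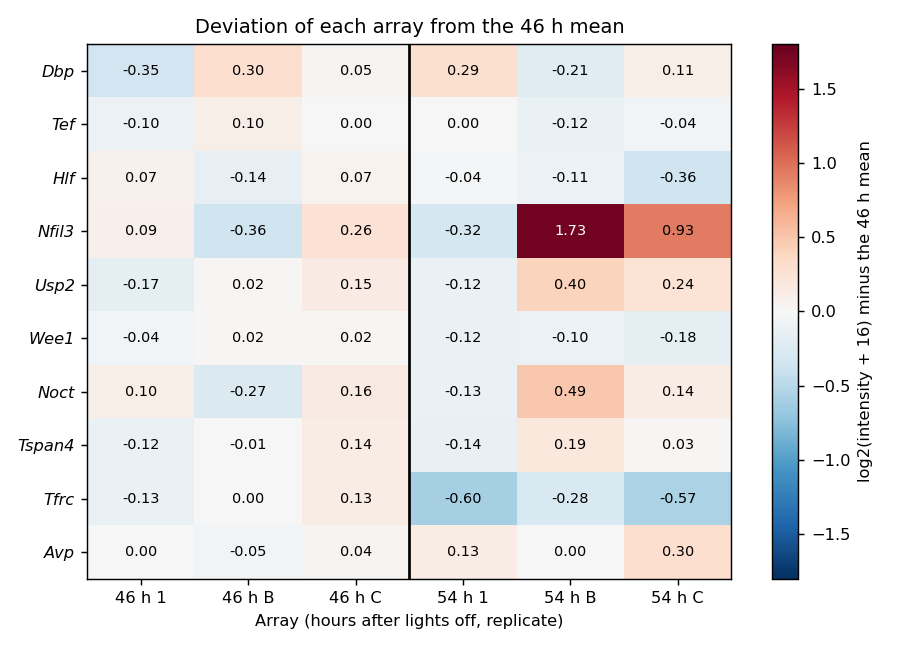
Deviation of each array (columns, hours after lights off and replicate) from the 46 h mean, on log2(intensity + 16), for the brightest probe set of each gene (rows); red is above and blue below that mean, and the line divides the time points. Nfil3 stands at 1.73 and 0.93 on 54 h replicates B and C and at -0.32 on 54 h replicate 1, and Tfrc at -0.60, -0.28 and -0.57 on the 54 h arrays.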

How the data were processed

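Per the labels, biotin-labelled total RNA from 6 whole adrenal samples, 3 at 46 h and 3 at 54 h after lights off, was hybridised to 1 array each. The values are intensity per probe set on a linear scale, as the authors deposited them; probe summary, background correction, normalization and genome build are not given in the sources used here.

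Of 45001 probe sets, 51 controls naming no single gene, 1 with no value and 1 with a damaged value were left out, and 44948 kept. Probe sets were named through the platform annotation: 34861 named 1 gene, 928 several and 9159 none. The deposited intensities were used without further normalization, since the medians of the filtered arrays lay within 0.07 (log2) of each other, under a limit of 0.1. They were transformed as log2(intensity + 16), on which scale changes of dim probe sets are understated, and filtered at the 40th percentile, leaving 26969. Limma 3.58.1 under R 4.3.3 (lmFit, eBayes with an intensity trend, two-sided, Benjamini-Hochberg over all probe sets, threshold 0.05) was fitted to all 6 arrays and tested on simulated data. Changes are 54 h minus 46 h. Lists have no set test.

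Named were every probe set of the 10 genes, up to 4 genes of each other pathway list by smallest p, and for the 2 genes with the largest SD the 3 nearest in array pattern. Star and Th, defining markers of the gland, and the other named marker genes were chosen after their values were seen. Members and lists were chosen with earlier results of these data known. Alternatives were other normalizations, filters, offsets, variance models, a block for the replicate letter, array weights, the mean over probe sets, and leaving out each array. Python 3.11.15, pandas 2.3.3 and matplotlib 3.10.9 made tables and plots.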

Additional observations from a re-analysis of the deposited data

How the results depend on the processing

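Of 269 changes computed for the 17 tested probe sets of the 10 genes under alternative settings, 254 kept the sign reported above, and the brightest probe sets of Nfil3, Tfrc, Hlf, Usp2, Wee1, Noct and Avp kept theirs in all of them, although the change of Noct came to 0.0063 without 54 h replicate B. None passed the test under any alternative except array weights, where 3 did: Hlf at -0.33, Usp2 at 0.33 and Tfrc at -0.46 (adjusted p = 0.0415, 0.046 and 0.0112). The highest weights were 2.86 for 46 h replicate 1 and 4.27 for 54 h replicate C, and that fit called 3481 of the 26969 probe sets tested. The count over all probe sets, 31, became 50 with quantile normalization, 51 with arrays centred on medians (32 of them higher, against 16 of 31), 48 with a filter at the 60th percentile, 3 without a trend, 61 with robust eBayes, and 2 to 66 with 1 array left out. The count was 2 on leaving out 46 h replicate 1 or 54 h replicate C, 18 on leaving out 46 h replicate B, and 66 and 61 on leaving out 54 h replicates 1 and B. The median change of the 10 genes ran from -0.070 to 0.089 over the fits with 1 array left out, the lower end without 46 h replicate 1. With array weights it was 0.099.

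The values that turned sign were all small. With array weights these were the second Dbp probe set at 0.15, Tef at 0.014 and its second probe set at -0.18, the second Hlf probe set at -0.062 and the second Tfrc probe set at 0.067. With 1 array left out, the brightest Dbp probe set ran from -0.11 to 0.21, below 0 without 46 h replicate 1 or 54 h replicate 1, and its second from -0.24 to 0.084, above 0 without replicate B of either time. The second Tef probe set ran from -0.13 to 0.14, below 0 without 46 h replicate C or 54 h replicate B. The second Hlf probe set ran from -0.027 to 0.056, below 0 without 46 h replicate B or 54 h replicate 1, and Tspan4 from -0.057 to 0.11, below 0 without 46 h replicate 1 or 54 h replicate B. The cause was not tested.

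Of the related lists, PAR bZIP targets had 1 gene past the test instead of 0 with arrays centred on medians and with robust eBayes (Cyp2c50), and with the replicate block and with the mean over probe sets (Abcb1b), 0 to 1 with 1 array left out, and 4 with array weights. Iron genes had 0 to 1 with 1 array left out, where Steap3 passed without 46 h replicate C. With array weights, which called 3481 of all 26969 probe sets tested, 3 of 8 C/EBP and related factors and 1 of 13 iron genes passed. So did 3 of 9 G2/M genes, 1 of 10 deadenylases, 2 of 8 tetraspanins and 1 of 4 genes of the vasopressin system. Deviations from the group means correlated at -0.06, -0.41 and -0.49 between arrays of the same replicate letter (1, B and C). Between arrays of unlike letter they ran from -0.04 to 0.46. Deviations from a mean of 3 arrays constrain each other, so these values cannot decide whether the letters pair the samples. As a block the replicate letters gave 45 probe sets and 0 of the 10 genes, with a median change of 0.04. Signals near the filter, such as the dimmest tested Tef probe set, are limited by background.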
